A study of Mus musculus with 8 samples.

Results

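The sequences described here are DNA oligonucleotides on a microarray that each hold 2 separate dipyrimidine steps on the same strand and no other. A dipyrimidine step is a pair of adjacent pyrimidines (TT, TC, CT or CC, read 5′ to 3′). A sequence was a member if it ended in the commonest last 24 bases and if the printed strand and its reverse complement together held exactly 2 runs of 2 or more pyrimidines, both 2 bases long and both on 1 strand. Of 122086 different sequences with that end, 2911 (2.38%) were members, 1329 with both steps on the printed strand and 1582 with both on its complement. The rule uses letters alone and no measured value. For comparison, 4494 sequences held 1 step on each strand, 3825 held a lone step, and 550 held none.

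The array is of a universal design, made to hold every short sequence many times over, and it was stained with mouse antibodies that recognise UV lesions in DNA. Staining was recorded on 8 arrays in 4 groups of 2: the antibody Anti-Cyclobutane Pyrimidine Dimer (CPD), diluted 400-fold, on UV and on Non-UV arrays, and the antibody Anti-6-4 Photoproduct (6-4PP), diluted 80-fold, on UV and on Non-UV arrays. The arrays carry synthetic DNA and no cells, and the mouse in the labels is the source of the antibodies. The UV dose, the making of the second strand, and whether replicates came from separate arrays or preparations are points not given in the sources used here, so p-values cover the spread between these arrays, which may be technical.

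UV light joins adjacent pyrimidines of 1 strand. In a CPD a cyclobutane ring links both bases, and in a 6-4PP a single bond joins the upstream base to the downstream one. CPDs are known to form most readily at TT, 6-4PPs mostly at TT and TC, and both lesions are removed from cellular DNA by nucleotide excision repair. Purines do not form these lesions, so a sequence that alternates purines and pyrimidines is a site without either, and a single step set in such a sequence is a lone site.

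All members are 60 bases long and share their last 35 bases, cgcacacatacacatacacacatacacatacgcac, which hold no step on either strand. The first 25 bases differ and carry both steps, starting at positions 6 to 16 (first) and 9 to 19 (second) from the 5′ end. 7 members are shown by their first 25 bases, 5′ to 3′, so that the layout of a member can be seen. The steps stand in capitals, both are on the printed strand, and the gap is the number of bases between them.
TT+TT gap 1: atgcacgtgtgtgTTaTTgtgcgca
TT+TT gap 9: gtatgcgTTacatgtgcgTTgcgca
TT+TC gap 1: atgcacacacaTTaTCacgtgcgca
TC+TC gap 1: atgcacgtaTCgTCgcacatgcgca
TC+TC gap 5: atgcataTCgcatgTCgtatgcgca
CT+CT gap 1: atgcacgtatgCTgCTacatgcgca
CC+CC gap 1: gtatgcacaCCaCCatatgtatgca

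A further set was chosen by value, as the members with the 2 highest and 2 lowest levels on the UV arrays of each antibody and those farthest above and below the sum of their lone steps. These show what the ends of the range look like and carry no test. For a complement-strand pair, the capitals are the letters opposite the step, so AA stands for TT, GA for TC, AG for CT and GG for CC on the complement.
highest with both antibodies: gtatgcaTTacaTTatatgtatgca
second highest with CPD: gtatgcaTTacaTTgtatgtatgca
second highest with 6-4PP: gtatgcacatgcacaTTaCCgcgca
lowest with CPD: gtatgcAGcGGtgcgtatgtatgca
second lowest with CPD: gtatgcGAcgtGAcgtatgtatgca
lowest and second farthest below the sum with 6-4PP: gtatgcGGcGGtatgtatgtatgca
second lowest with 6-4PP: gtatgcAAcGGcgcgtatgtatgca
farthest above the sum with both antibodies: gtatgcgCCgCTgcgtatgtatgca
second farthest above the sum with CPD: gtatgcatgCCgTCatatgtatgca
second farthest above the sum with 6-4PP: gtatgcacAGtAGtatatgtatgca
farthest below the sum with CPD: atgcaTTacgTTgcgtgtgtgcgca
second farthest below the sum with CPD, farthest with 6-4PP: gtatgcgcgTTaTTatgtgtgcgca

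Because purines and pyrimidines alternate around the steps, the gap within a same-strand pair is always odd. A gap of 1 base was held by 1781 members, of 3 by 964, of 5 by 124, of 7 by 29 and of 9 by 13. The 10 unordered step pairs were filled with 82 to 171 members each on the printed strand and 95 to 204 on the complement. By their names, 2631 members belong to the all-8-mer part of the array and 153 to an all-9-mer part, and 2259 were printed in 1 spot (4482 spots in all). Members overlap in sequence and are not replicates of one another.

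Each array held 96 to 340 spots at the scanner ceiling, and 20 members had such a spot on some array. Levels are adjusted intensities on a linear scale and include background that was not subtracted. The 550 sequences without a step set that base level: their medians were 1625 and 1614 on the CPD UV arrays, against 1220.2 and 1051 on non-UV arrays, and 1972 and 1975 on the 6-4PP UV arrays, against 1499.5 and 1253 on non-UV arrays. Arrays with the same replicate number were alike across antibodies: over members, the log2 ratio of array 1 to array 2 correlated between CPD and 6-4PP with r = 0.69 on UV arrays and r = 0.79 on non-UV arrays, a correlation across sequences, which are not independent. The antibodies' values are therefore not independent measurements. Between UV and non-UV arrays of 1 antibody the same correlation was 0.0045 (CPD) and 0.029 (6-4PP).

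Pairs of steps on 1 strand were stained more after UV, with both antibodies. Under the CPD antibody the median member read 2229 and 2133 on UV arrays, against 1217 and 1039.5 on non-UV arrays, a ratio of 1.94. Under the 6-4PP antibody it read 3167 and 3180.2 on UV arrays, against 1500.3 and 1233 on non-UV arrays, a ratio of 2.33. Neither antibody's UV values overlapped its non-UV values. An exact permutation test (two-sided) of these medians, with n = 2 in each group, gave p = 0.333 both times, and this design allows none smaller. Sequences without a step also read higher after UV, with CPD medians of 1625 and 1614 against 1220.2 and 1051. Their 6-4PP medians were 1972 and 1975 against 1499.5 and 1253, so both ratios include a rise seen without a step.

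In the fit across all 122086 sequences, relative to sequences without a step, 1519 members were higher after UV with the CPD antibody, 26 were lower and 1366 did not pass (limma adjusted p under 0.05). Of all sequences 69.8% were called higher and 0.489% lower. For 6-4PP 1785 members were higher, 28 lower and 1098 not past the threshold, beside 85.3% higher and 0.22% lower over all sequences. Lone steps were called higher in 1181 of 3825 (CPD) and 1494 of 3825 (6-4PP), and sequences without a step in 15 and 18 of 550. The counts and their directions depend on what arrays are centred on. Centred on the array median, 628 members were higher and 1719 lower with CPD, and 384 higher and 2062 lower with 6-4PP. Of all sequences 79.0% (CPD) and 75.8% (6-4PP) were called with that centring. Quantile normalization left 184 members called with CPD, beside 6.87% of all sequences, and 130 with 6-4PP, beside 5.34% of all.

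Levels differed widely with the steps a pair held. Pairs of 2 TT steps on the printed strand were the brightest class with the CPD antibody, with medians of 16195 and 15114 on UV arrays, against 1216 and 1034 on non-UV arrays, and 84 of 86 were called higher. Pairs of TT with TC read 9774 and 8141 after UV, pairs of TT with CT 9875 and 8771, and pairs of TT with CC 9613 and 8548, and these 3 classes lay close together. In each of them all but 2 to 5 members were called higher. Over all sequences 69.8% were called higher with CPD.

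Pairs without TT were far dimmer with the CPD antibody. On the printed strand the highest such class was CT+CT, with medians of 2275 and 2235 on UV arrays, against 1219.8 and 1027 on non-UV arrays, and 52 of 83 were called higher. For TC+TC the medians were 1933 and 1919 after UV with 23 of 82 called higher, and for CC+CC 1729 and 1697 with 3 of 84. These shares (62.7% for CT+CT, 28.0% for TC+TC and 3.57% for CC+CC) lay under the 69.8% called higher over all sequences.

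Pairs with TC were bright as well with the 6-4PP antibody. Medians on the printed strand were 10808 and 11679 on UV arrays, against 1536 and 1277 on non-UV arrays for TT+TT. They were 10212 and 10281 after UV for TT+TC and 7000.0 and 7725 for TC+TC, whose CPD levels were given above. TC+CT read 5521 and 5572 after UV and TC+CC 5313 and 5049. Pairs without TT or TC were lower, at 2799 and 2760.1 for CT+CT, 2519 and 2513 for CT+CC and 2164 and 2216 for CC+CC. Fewer were called higher in the dim classes, at 51 of 83 for CT+CT and 23 of 84 for CC+CC. Among bright classes the share called did not follow the level, at 75 of 86 (87.2%) for TT+TT, 149 of 164 (90.9%) for TT+TC and 73 of 82 (89.0%) for TC+TC. These shares were near the 85.3% called higher over all sequences.

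Each of the 10 step pairs was dimmer on the complement strand than on the printed strand, on every UV array. With the CPD antibody TT+TT read 5316 and 4528 on UV arrays, against 1206 and 1036 on non-UV arrays. In this class 90 of 95 were called higher, beside 69.8% of all sequences. Under 6-4PP staining TT+TT read 4457 and 4537 after UV and TC+TC 3969 and 3913. The lowest class with either antibody was CC+CC, with CPD medians of 1561 and 1596 and 6-4PP medians of 1964 and 1954 after UV, at or under the base level.

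Levels also differed with the base before each step. Among TT+TT pairs on the printed strand, the 23 with A before both steps read 22107 and 23632 on the 6-4PP UV arrays, the 46 with A before 1 step 10639.5 and 11366, and the 17 with G before both 2555 and 2659.5. Although it holds 2 TT steps, the last group lay nearer the 6-4PP base level of 1972 and 1975 than either other group. With the CPD antibody the same 3 groups read 22369 and 19467, 15475 and 14634, and 7668 and 6674. For TC+TC with the 6-4PP antibody they were 13187 and 13944 (24 members), 6634 and 7046 (42 members) and 2734 and 2754 (16 members). These groups were formed after the data were seen and are given with no test.

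The question the pairs can answer is whether the signal of 2 steps is the sum of 2 lone steps. For each member and array the sum was the base level plus the excess of each lone step over it, taken from sequences with 1 step of the same 4 bases (flank, step, flank) on the same strand. There are 32 such contexts, each with 82 to 159 lone sequences. On the printed strand the lone context ATTA read 12896 and 11739 on the CPD UV arrays, ATTG 10755 and 9493, GTTA 6875 and 6294 and GTTG 3843 and 3628. The 6-4PP UV arrays gave 13809 and 14227 for ATTA, 7373 and 7619 for ATCA and 5498 and 5506 for ATCG. They gave 2429 and 2444 for GTTA and 2303 and 2330.3 for GTCA. Lone CC contexts on the printed strand exceeded the base level by at most 296 with 6-4PP and 112 with CPD (mean of the UV arrays).

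Over all members the observed level was close to the sum. With the CPD antibody 2267 of 2911 members (77.9%) lay within 20% of it, with a median ratio of observed to sum of 1.00. For 6-4PP 2130 (73.2%) did, with a median ratio of 1.01. Over all members, however, the product of the lone folds and the brighter lone step did almost as well, with 74.1% and 72.6% (CPD) and 68.9% and 66.0% (6-4PP) within 20%. In 1417 members (CPD) and 1215 (6-4PP) neither lone step exceeded the base level by 20%, so closeness over all members says little about the sum. Lone steps scattered about the median of their own context to a like degree, with 80.1% (CPD) and 75.7% (6-4PP) within 20%. Across members, log2 observed and log2 sum correlated with r = 0.964 and 0.955, a description across sequences that share arrays, flanks and the same lone sequences. On non-UV arrays 95.7% and 90.4% of members lay within 20% of the base level.

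Sum, product and maximum can be told apart where both lone steps are bright. In the 290 members whose lone steps both exceeded the base level by over 20% with the CPD antibody, 70.0% lay within 20% of the sum, 35.5% within 20% of the product of the lone folds and 35.5% within 20% of the brighter lone step alone. The median ratio of observed to expected was 1.02 for the sum, 0.734 for the product and 1.29 for the brighter step. In the 420 such members of the 6-4PP antibody the shares were 69.0%, 31.4% and 34.8%, with median ratios of 1.01, 0.744 and 1.29. The sum was thus nearer than either alternative with both antibodies, by counts over members and with no test.

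Each member's excess over the base level was also taken as a percentage of the excess its 2 lone steps add up to. Taken over the 1670 members with a sum at least 20% above the base level, the median was 104% ± 2.30 (SD, n = 2 arrays) with the CPD antibody, with an interquartile range over members of 84.3% to 131%. Over 1844 members it was 106% ± 1.23 with the 6-4PP antibody, with an interquartile range of 85.2% to 133%. The ratio of the median observed excess to the median summed excess gave 118% and 123% (CPD) and 92.9% and 85.3% (6-4PP). The per-member measure was added after the data were seen, because levels within most classes fall into bright and dim groups and a median can land in either.

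By step pair, the CPD signal departed from the sum in 2 of 20 classes (10 pairs on 2 strands). The departure of a class is the median over its members of log2 observed over sum, as a UV value minus a non-UV value, with the sum computed on each array. TT+CC on the printed strand was higher than its sum, with 0.12 and 0.11 on the UV arrays, against 0.0061 and 0.030 on the non-UV arrays, a difference of 0.096 (SE 0.015, limma adjusted p = 0.000868). CC+CC on the complement strand was lower, at -0.10 (SE 0.016, limma adjusted p = 0.000867). Lone CC contexts on that strand exceeded the CPD base level by at most 76.6 (mean of the UV arrays), so there was little summed excess to fall short of. Over all 114 class values tested, 12.3% were called higher and 7.02% lower with the CPD antibody. The other 18 classes, TT+TT among them, ran between -0.053 and 0.031 (SE 0.014 to 0.025).

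TT+TT, the brightest CPD pair, did not depart from its sum past the threshold on either strand. On the printed strand its departure was 0.0086 (SE 0.017, limma adjusted p = 0.837), and the median member reached 102% ± 2.29 of its summed excess (SD, n = 2 arrays). On the complement strand the median member reached 104% ± 2.30 at a departure of 0.015, which with lone steps matched by position turned to -0.049 and passed. For TT+CC on the printed strand it reached 111% ± 0.502. The TT+CC call ended with normexp background correction (-0.016) and with lone steps matched without their flanks (0.052), and the CC+CC call on the intensity before local adjustment (-0.019). With means in place of medians no step pair was called for either antibody (limma; 4 of 20 with CPD and 2 of 20 with 6-4PP at an unadjusted p under 0.05).

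For 6-4PP 7 of 20 step-pair classes departed from the sum, 5 higher and 2 lower, beside 36.8% higher and 7.89% lower over all 114 class values. TC+TC on the printed strand departed most, with 0.17 and 0.21 on the UV arrays, against -0.048 and -0.049 on the non-UV arrays, a difference of 0.24 (SE 0.015, limma adjusted p = 3.91e-06). Its median member reached 124% ± 0.118 of the summed excess. The 4 others that were higher were also on the printed strand. They were TT+TC by 0.12 (SE 0.014, limma adjusted p = 6.93e-05) and TC+CC by 0.12 (SE 0.017, limma adjusted p = 0.000310). The rest were TT+CC by 0.11 (SE 0.015, limma adjusted p = 0.000231) and TC+CT by 0.061 (SE 0.015, limma adjusted p = 0.00696). TT+TT and TT+CT on that strand were not called.

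CC+CC was lower than its sum with the 6-4PP antibody, at -0.049 (SE 0.016, limma adjusted p = 0.0346) on the printed strand and at -0.056 (SE 0.016, limma adjusted p = 0.0155) on the complement. Lone CC contexts exceeded the 6-4PP base level by at most 296 (printed) and 151 (complement, means of the UV arrays), so the summed excess was small. The printed-strand call ended without either 6-4PP UV array (UV array 1 -0.051, UV array 2 -0.047), without 6-4PP non-UV array 2 (-0.030), and without CPD non-UV array 1 (-0.049) or 2 (-0.049). The complement call ended without 6-4PP UV array 1 (-0.048) or non-UV array 2 (-0.041). Without local adjustment the printed value was -0.022 and the complement one turned to 0.015; both calls also ended with normexp (-0.10 and -0.20), and the printed one without flanks (-0.042) and with 6-4PP arrays alone (-0.049). TT+TT was not past the threshold on either strand, at 0.023 and -0.029, but it passed as lower on the complement with lone steps matched by position (-0.063) and on the printed strand without flanks (-0.25). The other 11 classes that did not pass lay between -0.040 and 0.060.

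Of the 6-4PP classes above the sum, TC+TC kept its call under every alternative that keeps the sum, except means and lone steps matched without flanks (0.085), and TT+CC under every such one except means. On the intensity before local adjustment the calls of TT+TC (0.047), TC+CC (0.066) and TC+CT (0.035) ended. That of TT+TC also ended with lone steps matched without flanks (0.040), and that of TC+CT with normexp (0.11) and with lone steps matched by position as well (0.030).

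The antibodies differed in the departure from the sum in 4 classes that hold TC. The departure with CPD minus that with 6-4PP was -0.24 (SE 0.021, limma adjusted p = 9.92e-05) for TC+TC on the printed strand, -0.13 (SE 0.024, limma adjusted p = 0.00200) for TC+CC, -0.12 (SE 0.020, limma adjusted p = 0.00128) for TT+TC, and -0.074 (SE 0.025, limma adjusted p = 0.0469) for TC+TC on the complement. In these 4 of 20 classes CPD was the lower, beside 26.3% lower and 4.39% higher over all 114 class values. TC+CT was not called on either strand. Levels include the base level, and TC+TC lay near it with CPD, where a given share of summed excess moves the ratio less. Printed-strand TC+TC with A before 1 step reached 118% ± 31.1 (CPD, 11 members) and 121% ± 3.63 (6-4PP, 42 members) of its summed excess. With A before both steps it reached 98.4% ± 10.2 (22 members) and 127% ± 0.309 (24 members). The call of TC+TC on the complement ended without any 1 of 6 of the 8 arrays: -0.052 without CPD UV array 1, -0.073 and -0.076 without CPD non-UV arrays 1 and 2, -0.077 and -0.071 without 6-4PP UV arrays 1 and 2, and -0.064 without 6-4PP non-UV array 1. Without 6-4PP non-UV array 2 the count was 8 of 20, and the call of TT+TC ended on the intensity before local adjustment (-0.017) and without flanks (-0.019), as that of TC+TC on the printed strand did without flanks (-0.11).

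The departure differed between strands in some pairs. For 6-4PP the departure on the printed strand exceeded that on the complement in 4 of 10 step pairs, by 0.22 (SE 0.018, limma adjusted p = 1.38e-05) for TC+TC, 0.16 (SE 0.015, limma adjusted p = 2.68e-05) for TT+TC, 0.097 (SE 0.015, limma adjusted p = 0.000467) for TC+CC and 0.066 (SE 0.015, limma adjusted p = 0.00454) for TC+CT. Each of these pairs holds TC. With CPD it did so in 2 of 10, by 0.065 (SE 0.016, limma adjusted p = 0.0131) for CC+CC and 0.062 (SE 0.015, limma adjusted p = 0.0131) for TC+CT. The CC+CC call ended without CPD UV array 1 (0.061) or CPD non-UV array 1 (0.050), and the TC+CT call without CPD UV array 2 (0.058) or CPD non-UV array 1 (0.056) or 2 (0.067). On the intensity before local adjustment the CPD values were 0.033 (CC+CC) and 0.065 (TC+CT) and the 6-4PP value of TC+CC was 0.038, none past the threshold. With flanks left out of the match the 6-4PP value of TT+TC turned to -0.0068, the TC+TC call ended (0.057), and TT+TT passed in the other direction, lower on the printed strand (-0.31).

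None of the 8 classes of gap and strand departed from the sum past the threshold with the CPD antibody (limma; 2 of 8 at an unadjusted p under 0.05), with departures between -0.089 and 0.0069. For TT+TT on the printed strand the median member reached 98.4% ± 1.66 of its summed excess at a gap of 1 base (55 members) and 109% ± 4.70 at 3 bases (28 members), with interquartile ranges over members of 87.0% to 109.6% and 98.8% to 114%. These ranges overlapped. On the complement these values were 96.2% ± 0.264 and 110.3% ± 2.73. The 2 gaps were not tested against each other within a pair. Calls at long gaps turned on single arrays. A gap of 7 on the complement (18 members) was at -0.089, and passed the threshold without CPD UV array 2 (-0.14) or CPD non-UV array 2 (-0.13), while a gap of 7 on the printed strand (-0.087) and of 5 on the complement (-0.047) passed it without 6-4PP non-UV array 1 or without array 2, which enter only through the shared spread.

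For 6-4PP, printed-strand pairs were above the sum at a gap of 1 base, by 0.065 (SE 0.015, limma adjusted p = 0.00557) over 827 members, and at 3 bases, by 0.052 (SE 0.014, limma adjusted p = 0.0103) over 419. The 11 members with 7 bases between the steps were lower, at -0.12 (SE 0.042, limma adjusted p = 0.0395). The 13 members of both strands with a gap of 9 were higher, by 0.23 (SE 0.022, limma adjusted p = 2.68e-05), and with CPD stood at -0.015. The gap-3 call ended without 6-4PP UV array 1 (0.048) and the gap-7 call without that array (-0.10) or non-UV array 2 (-0.037). On the intensity before local adjustment the calls at gaps of 1, 3 and 7 ended, and without flanks the gap-1 value turned to -0.040.

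At a gap of 1 base the single base between the steps is either A or G, which gives 32 cores of 5 bases on each strand with 24 to 35 members each. On the printed strand TCATC, the core with A between 2 TC steps, reached 135% ± 4.11 of its summed 6-4PP excess (SD, n = 2 arrays), and TCGTC 114% ± 11.7. TTATT reached 93.6% ± 0.958 and TTGTT 108% ± 4.69. Cores that join TT and CC through A were among the highest with this antibody, at 133% ± 5.19 for CCATT and 129% ± 1.47 for TTACC. Their interquartile ranges over members were 118% to 160% and 94.2% to 159%. By the ratio of median excesses CCATT reached 160% and 143% on the UV arrays, but TTACC 83.4% and 87.0%. With the CPD antibody TTATT reached 94.4% ± 1.94, CCATT 126% ± 0.625 and TTACC 116% ± 1.04 on the printed strand. On the complement TTACC reached 144% ± 6.42, CCATT 90.7% ± 3.13 and TTATT 86.1% ± 0.490 with this antibody. With 6-4PP, complement-strand TTACC reached 131% ± 2.41 and CCATT 97.8% ± 0.826, so CCATT was high on the printed strand alone. Cores are given with no test.

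The order of 2 unlike steps went with differences in the departure. On the complement strand with the CPD antibody, pairs with TT on the 5′ side (read along their own strand) exceeded those with TT on the 3′ side, by 0.27 (SE 0.014, limma adjusted p = 6.61e-07) for TT and CC, 0.27 (SE 0.017, limma adjusted p = 1.78e-06) for TT and CT and 0.20 (SE 0.019, limma adjusted p = 4.40e-05) for TT and TC. The median member with TT then CC reached 133% ± 7.94 of its summed excess, and with CC then TT 90.7% ± 7.10. On the printed strand TT then TC was lower than TC then TT, at -0.19 (SE 0.018, limma adjusted p = 4.40e-05), and with flanks left out of the match this turned to 0.11. These were 4 of 12 order differences (6 unlike pairs on 2 strands).

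For 6-4PP 6 of 12 order differences passed. On the complement these were 0.23 (SE 0.017, limma adjusted p = 6.54e-06) for TT before CT, 0.23 (SE 0.026, limma adjusted p = 6.93e-05) for TC before CT, 0.16 (SE 0.014, limma adjusted p = 1.78e-05) for TT before CC and 0.12 (SE 0.018, limma adjusted p = 0.000481) for TC before CC. On the printed strand they were 0.11 (SE 0.018, limma adjusted p = 0.000540) for TT before CT and 0.079 (SE 0.020, limma adjusted p = 0.00939) for TC before CT, and the last ended without 6-4PP non-UV array 2 (0.072). Before local adjustment of the intensity the printed-strand differences were no longer past the threshold at about the same size (0.090 for TT before CT and 0.080 for TC before CT), and that of TT before CC was 0.016, not past it.

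The order of steps is tied to position, and lone steps themselves read differently along the sequence. On the complement strand the 5′ step of a pair is the one nearer the shared end of the printed strand. Lone complement-strand TT steps starting at position 8 of the printed strand (131 sequences) read -0.13 on the log2 scale relative to the median of their own context on the CPD UV arrays, and those at position 12 (129 sequences) 0.11. Lone printed-strand TT steps read -0.17 at position 7 (68 sequences) and 0.035 at position 11 (131 sequences). When lone steps were also matched within 3 bases of position, the CPD order differences on the complement became 0.20 (TT and CC), 0.20 (TT and CT) and 0.13 (TT and TC), each still past the threshold. The printed-strand one became -0.13. This match pools lone steps up to 3 bases to either side, across which lone TT levels shift, so it does not remove position in full. The part of position in what remains was not tested. Of the 6-4PP differences on the complement, TT before CC became 0.11 and TC before CC 0.058, both still past it. This match also gave printed-strand calls that the main fit did not. They were TT before CT with CPD, at 0.090 (limma adjusted p = 0.0329), and TT before TC with 6-4PP, at -0.10 (limma adjusted p = 0.00133).

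Same-strand pairs were set against sequences with the same 2 steps on opposite strands, each relative to its own sum. With the CPD antibody 2 of 10 step pairs differed: TT+TT was higher on the same strand, by 0.14 (SE 0.014, limma adjusted p = 4.84e-05), and TT+CC by 0.074 (SE 0.016, limma adjusted p = 0.00609). For TT+TT the opposite-strand pairs were the ones away from the sum, at -0.13, beside 0.012 for same-strand pairs of both strands together. The TT+CC difference ended without CPD non-UV array 1 (0.064). With lone steps matched without flanks the TT+TT difference turned to -0.069.

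Under 6-4PP staining same-strand pairs were lower than opposite-strand pairs in 3 of 10, at -0.081 (SE 0.014, limma adjusted p = 0.000884) for CC+CC, -0.083 (SE 0.022, limma adjusted p = 0.0107) for TC+TC and -0.053 (SE 0.017, limma adjusted p = 0.0259) for TT+TC. TC+TC exceeded its sum in both arrangements, by 0.11 over same-strand pairs of both strands and by 0.19 over opposite-strand pairs. The TC+TC difference ended without 6-4PP UV array 1 (-0.059) or non-UV array 1 (-0.057). The TT+TC difference ended without 6-4PP UV array 1 (-0.049) or 2 (-0.056) or non-UV array 1 (-0.038). Without local adjustment none of the 10 differences passed, with CC+CC at -0.024 (limma; 1 of 10 at an unadjusted p under 0.05), and with normexp TC+TC turned to 0.033. Gaps are odd on the same strand and even (including 0) across strands, so strand and spacing cannot be told apart here.

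The members printed above give these relations in single values. The TT+TT member with 1 base between its steps read 16345 and 12497 on UV arrays, against 1184 and 978 on non-UV arrays with the CPD antibody, where the sum was 16005 and 14173 on the UV arrays. The one with 9 bases between them read 10929 and 9083 on UV arrays, against 1179.6 and 979 on non-UV arrays, where the sum was 9093 and 8308. Array 2 of the first lay under its sum, and both arrays of the second lay above theirs. Stained for 6-4PP, the close TC+TC member read 6673 and 6277 on UV arrays, against 1314 and 1123 on non-UV arrays, with a sum of 5725 and 5776. The TC+TC member with a gap of 5 read 5853 and 5341 on UV arrays, against 1284 and 1685 on non-UV arrays, with a sum of 5725 and 5776. Both hold a strong ATCG step and a weak GTCG step. They reached 125% and 113% (close) and 103% and 88.6% (gap of 5) of the summed 6-4PP excess. The CPD antibody read 1865 and 1656 for the close one on UV arrays, against 1369 and 1010.0 on non-UV arrays.

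The TT+TC member with both steps after A read 27578 and 27106 on UV arrays, against 1515 and 1328 on non-UV arrays with the 6-4PP antibody, above its sum of 19210.4 and 19871, and 16393 and 14543 on UV arrays, against 1349.7 and 1240.3 on non-UV arrays with the CPD antibody, where the sum was 13230.4 and 12059. Both antibodies stained it beyond the sum. The CT+CT member read 1918 and 2109.7 on UV arrays, against 1219 and 1092 on non-UV arrays with the CPD antibody, where the sum was 2012 and 1942. It reached 75.8% and 151% of its summed excess. The CC+CC member read 2707 and 2876 on UV arrays, against 1452 and 1225 on non-UV arrays with the 6-4PP antibody, where the sum was 2479 and 2651. This was 145% and 133% of its summed excess.

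The brightest member with both antibodies holds 2 ATTA contexts 3 bases apart. It read 29906 and 26453 on UV arrays, against 1096 and 1044 on non-UV arrays with the CPD antibody (sum 24167 and 21864) and 36379 and 36599 on UV arrays, against 1411 and 1277 on non-UV arrays with the 6-4PP antibody (sum 25646 and 26479). The dimmest with the 6-4PP antibody holds 2 CC steps on the complement and read 1329 and 1147 on UV arrays, against 1439 and 1599.6 on non-UV arrays (sum 2069 and 2042). Its UV values lay under both non-UV values. The second highest with CPD read 24855 and 24857 on UV arrays, against 1208 and 1040.0 on non-UV arrays (sum 22026 and 19618), and the second highest with 6-4PP, a TT and a CC 1 base apart, read 22259 and 50279 on UV arrays, against 1829.7 and 1583 on non-UV arrays (sum 13999 and 14426). The lowest with CPD, a CT and a CC on the complement, read 1073 and 1079 on UV arrays, against 1246 and 862 on non-UV arrays, and the second lowest, 2 TC steps on the complement, 1193 and 1078 on UV arrays, against 1216 and 1077 on non-UV arrays. The second lowest with 6-4PP, a TT and a CC on the complement, read 1312 and 1491 on UV arrays, against 1338 and 1221 on non-UV arrays. In these 3 low members UV and non-UV values overlapped.

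The members farthest above the sum were high on 1 UV array alone. The farthest, a CC and a CT 1 base apart, read 60266 and 1838 on UV arrays, against 1269 and 1043 on non-UV arrays with the CPD antibody, where the sum was 1714 and 1705. Stained for 6-4PP, the same member read 55068 and 2145 on UV arrays, against 1659.5 and 1244 on non-UV arrays, so UV array 1 alone was bright with both antibodies. The second farthest with CPD read 1753 and 57823 on UV arrays, against 1492 and 1035 on non-UV arrays, and here UV array 2 was the bright one, with 6-4PP too (2648 and 52943). The second farthest with 6-4PP read 42182 and 2917 on UV arrays, against 1562 and 1361 on non-UV arrays, again high on UV array 1. All 3 were printed in 1 spot. The members farthest below were of another kind, with both arrays low. The TT+TT member with a gap of 3 and the contexts ATTA and GTTG read 7732 and 6466 on UV arrays, against 1356 and 961 on non-UV arrays with the CPD antibody, where the sum was 15114 and 13753. The TT+TT member with a gap of 1 and the contexts GTTA and ATTA read 10086 and 6289 on UV arrays, against 1383 and 1078 on non-UV arrays with the 6-4PP antibody, where the sum was 14266 and 14696.

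Departures of single members were only partly repeatable. Between the 2 UV arrays of an antibody, log2 observed over sum correlated across members with r = 0.331 (CPD) and 0.378 (6-4PP), while the levels correlated with r = 0.929 and 0.922. These are descriptions across sequences, with no p.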

How the data were processed

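The 8 deposited files hold the fluorescence intensity of each spot of a universal DNA array. Per the file headers, the values deposited by the authors are a normalised intensity and an adjusted intensity on a linear scale, and in every spot, to rounding error, the adjusted one equalled the normalised one times a constant of the array over the local median. Software and scanner settings are not given here: no source used names them.

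The adjusted intensity was averaged over the spots of a sequence, and sequences without the shared last 24 bases were left out. The sum for a pair was the array's median of the 550 sequences without a step, plus the excess of each lone step over it (median of lone sequences with the same 4 bases and strand, at least 5). A class needed at least 10 members, and its value on an array was the median log2 of observed over sum. UV and non-UV arrays were compared with limma 3.58.1 (lmFit and eBayes, 4 groups of 2 arrays in 1 fit), over all 122086 sequences centred on the sequences without a step, and over 114 class values, which overlap. Adjusted p-values are Benjamini-Hochberg values, and the threshold was 0.05. Both fits were run on simulated data whose noise was independent between arrays. Such data cannot show how the likeness of same-numbered arrays across antibodies affects the p-values. Array medians were compared with an exact permutation test.

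Every step pair, ordered pair and gap with at least 10 members was named. Sequences were printed for 5 step pairs at their smallest gap, for 2 of these at their largest, and, by value, for the 2 highest and 2 lowest levels and ratios to the sum per antibody. The members, lists and comparisons were chosen with earlier results of these data known. Groups follow the labels. The same replicate number did not pair UV with non-UV arrays (r near 0), and the fits have no block. Same-numbered arrays of the antibodies did deviate together (r = 0.69 on UV and 0.79 on non-UV arrays, over members). The fits treat these arrays as independent, in the shared spread and in the difference between antibodies. The limma p-values do not allow for this likeness and may be too small.

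The alternatives were the intensity before local adjustment, saturated spots left out, normexp with an offset of 50, lone steps matched without flanks or within 3 bases of position, at least 20 lone sequences, at least 20 members in a class, means for medians, the product or the higher of the lone values for the sum, a replicate block, each antibody's arrays fitted alone, robust eBayes with a trend, each array left out, and for the fit over sequences other centrings, quantile normalization and the dimmest 25% left out. Python 3.11.15 with numpy 2.4.6, pandas 2.3.3 and scipy 1.17.1, and R 4.3.3 were used.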

Additional observations from a re-analysis of the deposited data

Results flagged for a closer look

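For 4 step pairs the UV departure from the sum differed between the antibodies by a test of the difference itself (limma interaction over 8 arrays, adjusted over 114 class values). CPD minus 6-4PP was -0.24 on the log2 scale for TC+TC on the printed strand, -0.13 for TC+CC on the printed strand, -0.12 for TT+TC on the printed strand and -0.07 for TC+TC on the complement strand. Over all class values 26.3% were lower and 4.39% higher. TC+TC lay near the base level with CPD, where a given share of summed excess gives a smaller log2 departure. The part of that was not tested. Same-numbered arrays of the antibodies deviate together, so the interaction compares values that are not independent, and the part of that in these differences was not tested. The TC+TC difference on the complement did not pass without any 1 of 6 of the 8 arrays. With 2 arrays in each group, single arrays could not be checked for lying far from the others.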

How the results depend on the processing

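Counts of classes past the threshold changed most with how the sum was built. With means for medians the counts were 0 of 20 step pairs (CPD), 0 (6-4PP) and 0 (difference), 0 gaps (6-4PP), and 0 and 0 same-strand differences (CPD and 6-4PP), with 4, 2, 0, 0, 0 and 1 at an unadjusted p under 0.05 (limma). With the product of the lone folds CPD called 7 step pairs (6 lower, 1 higher) and 2 gaps. With the higher lone value it called 14 step pairs, 4 gaps and 4 same-strand differences, 6-4PP called 16, 6 and 5, and the difference between antibodies 11. Lone steps without flanks gave 1 step pair and 1 gap (CPD) and 8 same-strand differences (6-4PP). The intensity before local adjustment gave 2 differences between antibodies, and 0 gaps and 0 same-strand differences with 6-4PP. Normexp gave 4 step pairs and 1 same-strand difference with 6-4PP, and 1 with CPD. CPD arrays alone gave 4 step pairs and 2 gaps. Leaving out single arrays gave 2 to 3 CPD and 5 to 9 6-4PP step pairs and 3 to 8 differences between antibodies. It gave 0 to 2 and 1 to 3 gaps, and 1 to 3 and 1 to 3 same-strand differences. Fewer arrays leave fewer degrees of freedom, but counts rose as well as fell. The cause of the changes in this paragraph was not tested.

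Members called numbered 1545 with CPD and 1813 with 6-4PP, beside 70.3% and 85.5% of all sequences. With CPD, centring on the array median gave 2347 (628 higher, 1719 lower), beside 79.0% of all sequences. No centring gave 2525 (2524 higher, 1 lower), beside 91.5%. With 6-4PP the same centrings gave 2446 (384 higher, 2062 lower) and 2576 (2576 higher, 0 lower), beside 75.8% and 95.6%. Quantile normalization gave 184 (93 higher, 91 lower) and, with 6-4PP, 130 (23 higher, 107 lower), beside 6.87% and 5.34%. Without the dimmest 25% 6-4PP called 1177 of the 1354 members kept, beside 94.0% of all sequences kept. That cut was by level over all arrays, UV arrays included. It keeps sequences partly for being bright after UV, so the share called among those kept cannot be compared with the main share. Leaving out single arrays gave 1308 to 1585 and 1672 to 1810, beside 64.1% to 71.5% and 82.1% to 85.4% of all sequences. The ratio of median excess to median sum was 120.2% (CPD) and 89.1% (6-4PP). It was 116% and 98.9% without flanks, 99.4% and 102% with means, 116% and 83.2% with the product, 151% and 114% with the higher value, 80.0% before local adjustment (6-4PP), and 104% and 106% per member, an alternative added after seeing the data. Single arrays gave 118 to 123% and 85.3 to 92.9%.

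With the replicate number as a block, calls were 2 and 7 of 20 step pairs and 4 differences between antibodies (CPD first throughout). They were 0 and 3 gaps, 2 and 3 same-strand differences, and 1572 and 1845 members, beside 71.2% and 86.2% of all sequences. The block changed no other call by over 1.5 times. The numbers did not pair UV with non-UV arrays (r = 0.0045 with CPD and 0.029 with 6-4PP over members). A block shared by UV and non-UV arrays does not model the likeness of same-numbered arrays across antibodies, so these counts do not test it.

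Of single class values, 2613 kept sign and side of the threshold, 166 lost the call and 81 gained one with the same sign, 224 changed sign without being past the threshold before or after, and 38 changed sign with a call on at least 1 side. The last are given here. With lone steps matched without flanks the CPD departure was 0.063 for TT then TC on the printed strand, -0.044 for TC then TT on the printed strand, -0.11 for CC then TT on the printed strand, -0.069 for same minus opposite strand for TT+TT, -0.086 for same minus opposite strand for TT+TC, 0.11 for the order of TT and TC on the printed strand and 0.22 for the order of TT and CC on the printed strand. With lone steps matched without flanks the 6-4PP departure was -0.25 for TT+TT on the printed strand, -0.087 for TC then TT on the printed strand, -1.24 for CC then TT on the printed strand, -0.13 for CT then TC on the printed strand, -0.53 for CC then TC on the printed strand, 0.070 for TT then TC on the complement strand, -0.040 for a gap of 1 on the printed strand, 0.20 for same minus opposite strand for TT+CT, 0.17 for same minus opposite strand for TC+CT, 0.20 for the order of TT and TC on the printed strand, 1.57 for the order of TT and CC on the printed strand, 0.83 for the order of TC and CC on the printed strand, -0.31 for printed minus complement strand for TT+TT and -0.0068 for printed minus complement strand for TT+TC. On the intensity before local adjustment the CPD departure was -0.074 for TT+CT on the complement strand and 0.098 for printed minus complement strand for TT+CT. On the intensity before local adjustment the 6-4PP departure was -0.083 for TT+CT on the complement strand, -0.078 for CT+CT on the printed strand, -0.080 for CT+CT on the complement strand, 0.015 for CC+CC on the complement strand, -0.0032 for TT then CT on the complement strand, -0.025 for TT then CC on the complement strand and 0.11 for printed minus complement strand for TT+CT. With normexp the CPD departure was -0.016 for TT+CC on the printed strand and -0.15 for TT then CC on the printed strand. With normexp the 6-4PP departure was 0.033 for same minus opposite strand for TC+TC. With means the CPD departure was -0.0031 for TT then CC on the printed strand. With means the 6-4PP departure was -0.066 for TC then CT on the complement strand, -0.068 for TC then CC on the complement strand and -0.0052 for the order of TC and CT on the printed strand. With lone steps matched by position the CPD departure was -0.049 for TT+TT on the complement strand. Few arrays (2 per group), unsubtracted background and sums near the base level for pairs without TT or TC limit what departures can be seen.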
